A study of Homo sapiens with 16 samples.

Results

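This section describes the mRNA of G0S2 and of 9 other genes that put triglyceride into lipid droplets or take it out again, in a human breast cancer cell line with and without the thioredoxin-interacting protein gene TXNIP. The 10 genes were chosen by name because G0S2 was far higher in untreated TXNIP-knockout cells than in untreated unedited cells, and all 10 were found among the 60719 gene identifiers of the count tables. The cells are MDA-MB-231, an established triple-negative breast cancer line kept in serum-containing medium. Unedited cells are called parental 231, and cells whose TXNIP gene was cut with a CRISPR/Cas9 plasmid are called 231:TKO. The knockout was cloned from single cells, and the sources do not say how many clones the sequenced cells stand for. RNA was sequenced from 2 libraries each of untreated parental 231 and untreated 231:TKO. It was also sequenced from 3 libraries each of both populations after 48 hours with a non-targeting siRNA (siNT) or with an siRNA against MYC (siMyc), 16 libraries in all.

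Cells store fatty acids as triglyceride in lipid droplets. The last step of triglyceride synthesis is made by DGAT1 and DGAT2, and the droplet surface is coated by perilipins such as PLIN2 and PLIN3. Lipolysis, the breakdown of the stored fat, starts with adipose triglyceride lipase, encoded by PNPLA2 and switched on by its co-activator ABHD5. Hormone-sensitive lipase (LIPE) and monoacylglycerol lipase (MGLL) then remove the remaining fatty acids. G0S2 and HILPDA are small proteins that bind adipose triglyceride lipase and inhibit it, and HILPDA is a known target of hypoxia signalling.

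Because the study knocked down MYC, a factor that binds DNA at E-boxes, the stretches upstream of the inhibitor G0S2, the coat gene PLIN2 and the lipase PNPLA2 are shown. Each holds the 250 bases before the RefSeq start site, 5′ to 3′ on the gene's strand, from RefSeq promoter windows on GRCh38.p14. Capitals mark the E-box CACGTG, the non-canonical E-box CACGCG (or its reverse complement CGCGTG) and the TATA core TATAA (or TTATA), searched on both strands.
G0S2, chr1:209675162-209675411, plus strand: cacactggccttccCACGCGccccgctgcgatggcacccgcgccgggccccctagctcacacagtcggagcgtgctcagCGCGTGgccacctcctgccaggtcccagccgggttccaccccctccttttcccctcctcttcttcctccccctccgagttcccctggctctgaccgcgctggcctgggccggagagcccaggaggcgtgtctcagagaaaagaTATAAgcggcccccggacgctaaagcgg
PLIN2, chr9:19127493-19127742, minus strand: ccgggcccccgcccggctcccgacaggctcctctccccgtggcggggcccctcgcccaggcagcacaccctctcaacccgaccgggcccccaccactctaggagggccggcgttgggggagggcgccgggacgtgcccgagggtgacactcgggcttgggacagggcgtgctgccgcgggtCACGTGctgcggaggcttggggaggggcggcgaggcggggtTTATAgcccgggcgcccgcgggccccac
PNPLA2, chr11:818664-818913, plus strand: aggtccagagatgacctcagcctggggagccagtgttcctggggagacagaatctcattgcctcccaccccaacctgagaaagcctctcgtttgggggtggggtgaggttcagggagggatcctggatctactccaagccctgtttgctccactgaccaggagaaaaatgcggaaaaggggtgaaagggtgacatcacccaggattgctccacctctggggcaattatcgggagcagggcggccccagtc
The G0S2 stretch held 2 matches to CACGCG, beginning 236 and 171 bases before the start, a TATAA beginning 28 bases before it, and no CACGTG. Its first bases match the end of the study's forward primer for the G0S2 promoter. In that primer CGCGTG comes directly before them, so another match lies just outside the window. The PLIN2 stretch held 1 CACGTG, 69 bases before the start, and a TATAA match 28 bases before it; it lies within the longer span that the count tables give PLIN2. The PNPLA2 stretch held none of these letters. Of 35116 windows of the same length, 6.34% held CACGTG, 9.72% held CACGCG and 18.9% held TATAA, so that none of the motifs is rare. The table had windows for 6 of the 10 genes, the others with one being ABHD5, PLIN3 and LIPE. Of the ABHD5 windows, which overlap, some held CACGCG, 35 or 103 bases before their starts. Those of PLIN3 and LIPE held none of the motifs. A match here is a description of letters, not evidence that a factor binds.

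Libraries held between 18953668 and 59799444 counted reads or read pairs. Counting was by single reads for the untreated cells and by read pairs for the siRNA-treated ones, and the parental siRNA libraries were counted on a later Ensembl release than the others; all 10 genes have the same counted length in both releases. TXNIP was at 276 ± 0.325 CPM (read counts scaled to a common library size, SD, n = 2) in parental 231 and at 12.7 and 46.5 CPM in the 2 untreated 231:TKO libraries. In the siRNA libraries it was between 6.7 and 10.1 CPM in 231:TKO and between 296 and 470 CPM in parental 231. MYC fell with siMyc from 135 ± 11.3 to 58.4 ± 0.435 CPM (SD, n = 3 each) in 231:TKO and from 126 ± 3.16 to 65.7 ± 1.41 CPM (SD, n = 3 each) in parental 231. The 4 markers of the line (VIM, CD44, AXL and CAV1) were each at 566 CPM or more in every library, while the adipocyte genes ADIPOQ and LEP had a mean under 0.05 CPM in every group. The 6 adipocyte genes together summed to between 0.14 and 18.5 CPM, with LPL the only one at a mean of 1 CPM or more. Of 5 epithelial and receptor genes taken as low, absent or not amplified in this line, which summed to between 99.1 and 134 CPM, ERBB2 reached 107 CPM, EPCAM 32 CPM and CDH1 9.4 CPM in their highest libraries. Of 3 fibroblast markers LUM reached 8.87 CPM, and the blood cell markers PTPRC and HBA1 summed to at most 1.46 CPM. A pair of features of the libraries bears on what follows. The untreated 231:TKO libraries differed from each other more than the untreated parental ones, with deviations from the group mean of SD 0.229 on the log2 scale over 10957 genes against 0.055 in untreated parental 231. Among the parental siRNA libraries, siNT replicate 1 and siMyc replicate 3 deviated from their group means together (correlation 0.94 across genes) and opposite to the libraries of the other treatment outside it (-0.79 to -0.89), and are called the parental pair below.

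G0S2 (ENSG00000123689, chromosome 1, 209675412 to 209676390, plus strand) was low in 1 condition of the 6. Untreated parental 231 had 16.6 and 17 CPM, from 335 and 350 counts. Untreated 231:TKO had 200 and 121 CPM. The 231:TKO+siNT libraries had 130, 148 and 133 CPM, and the parental 231+siNT libraries 168, 123 and 123 CPM. With siMyc, 231:TKO had 107, 115 and 112 CPM and parental 231 had 103, 96.2 and 130 CPM. Both untreated parental libraries thus lay far below the other 14, whose lowest value was 96.2 CPM. Of the 2 untreated 231:TKO libraries, the one with more G0S2 had less TXNIP mRNA. Parental 231+siNT, with TXNIP at 296 to 315 CPM, had G0S2 at 123 to 168 CPM, and 231:TKO+siNT, with TXNIP at 6.7 to 8.06 CPM, at 130 to 148 CPM. A relation between the levels of these genes was not tested. All values are of bulk cultures, in which fewer cells expressing a gene and less RNA per cell cannot be told apart. The exact binomial 95% interval of the lowest library, 14.9 to 18.5 CPM, is narrow, and such intervals cover counting error alone.

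The change in parental 231 between untreated and siNT-treated libraries, from a mean of 16.8 to 138 CPM, was 8.2-fold, whereas 231:TKO had means of 161 and 137 CPM. Transfection, the sequencing layout (single reads or pairs) and the annotation release in parental 231 changed with it and cannot be told apart, and no test was made. Whether the untreated and the siRNA-treated cells were of the same clones and passages is not given in the sources used here. Of 13293 genes with a mean of at least 1 CPM in these parental groups, 28.7% moved by at least 2-fold in either direction, and 98.2% had a lower log2 ratio than G0S2. In parental 231 the other 9 genes moved less, whereas in 231:TKO G0S2 had a log2 ratio of -0.23 and 8 of the 9 moved farther from 0. Parental means changed by factors between 0.662 for ABHD5 and 1.55 for PLIN3, and 231:TKO means by factors between 0.744 for ABHD5 and 1.71 for DGAT2.

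Levels of different genes were set side by side per kilobase of counted length. That length covers all annotated exons of a gene and not the transcripts expressed, so orders and ratios between genes are approximate. On this scale the coat gene PLIN3 led in untreated parental 231 with 64.8 ± 3.06 CPM per kb (SD, n = 2). PNPLA2 followed with 29.5 ± 0.593, G0S2 with 19.2 ± 0.316, ABHD5 with 15.7 ± 0.122 and PLIN2 with 14.7 ± 1.07 CPM per kb. DGAT1, MGLL, HILPDA, DGAT2 and LIPE came next, at 7.86 down to 1.03 CPM per kb. In untreated 231:TKO G0S2 led with 184 ± 63.6 CPM per kb, ahead of PLIN3 with 62.9 ± 1.56 (SD, n = 2 each). There the neighbours PNPLA2 and ABHD5, ABHD5 and PLIN2, DGAT1 and HILPDA, and HILPDA and MGLL overlapped between libraries, and DGAT2 was last with 0.49 ± 0.261 CPM per kb. G0S2 was the most abundant of the 10 by mean in every siRNA group but parental 231+siMyc, where PLIN3 with 130 ± 3.78 and G0S2 with 125 ± 20.6 CPM per kb overlapped (SD, n = 3 each). They also overlapped in 231:TKO+siMyc. LIPE or DGAT2 was the least abundant in all 6 conditions.

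**Figure D1:**
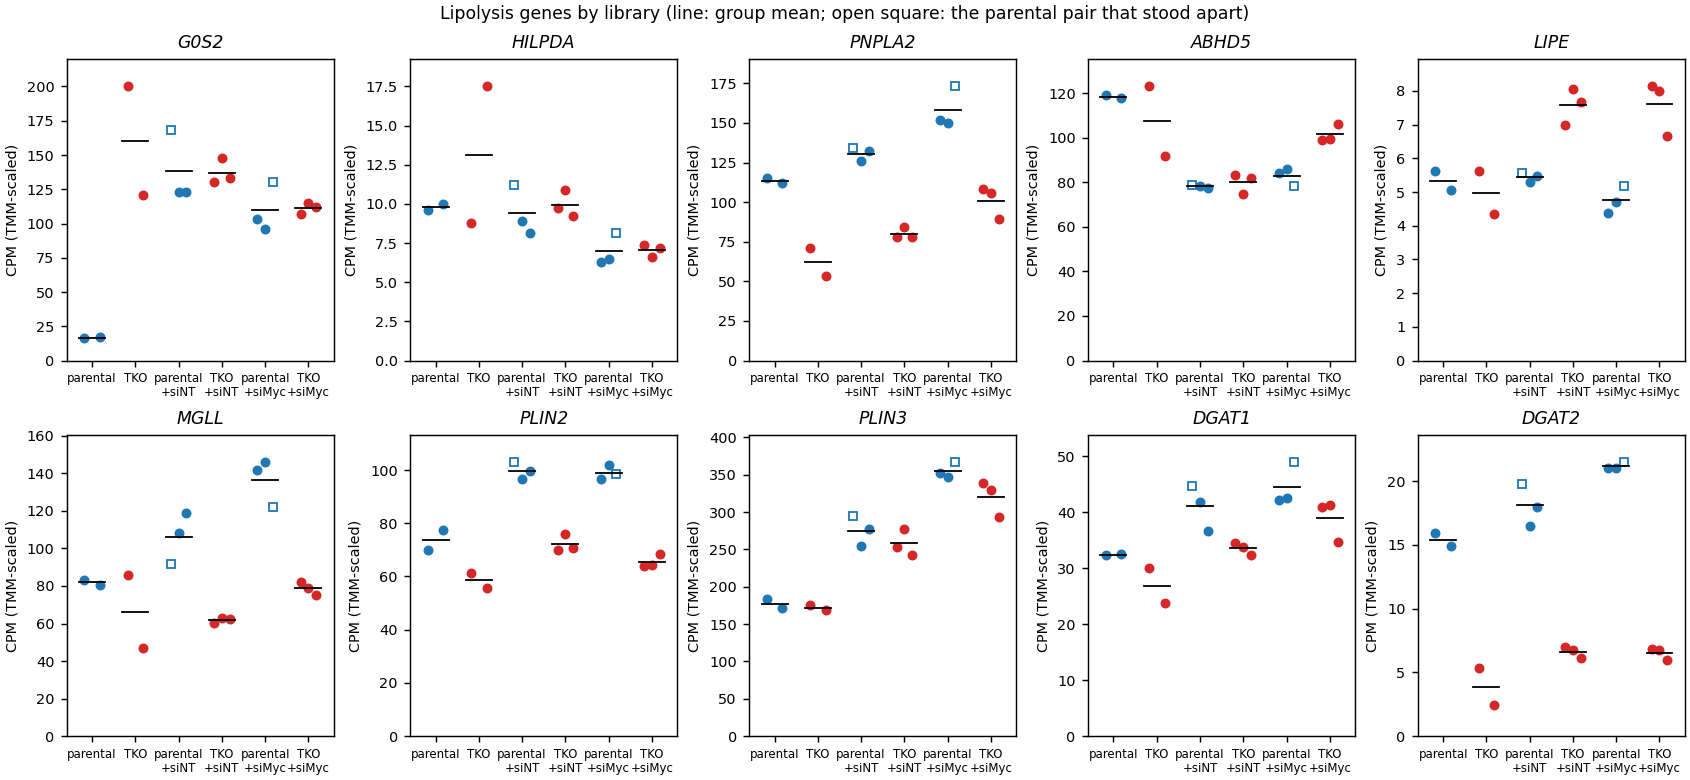
Level of each of the 10 genes in the 16 libraries, in CPM scaled by TMM factors on an axis from 0, by condition (blue, parental 231; red, 231:TKO; black line, group mean; open squares, the parental pair). G0S2 was at 16.6 and 17 CPM in untreated parental 231 and at 96.2 CPM or more elsewhere, while DGAT2 was at 7.01 CPM or less in every 231:TKO library.

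The amount of inhibitor mRNA relative to its lipase was taken as the ratio of G0S2 to PNPLA2, each per kilobase. Its absolute size depends on the counted lengths, whereas its order between libraries does not. It was 0.634 and 0.668 in untreated parental 231 and 12.4 and 9.92 in untreated 231:TKO. With siNT it was 7.3, 7.65 and 7.47 in 231:TKO and 5.46, 4.29 and 4.1 in parental 231. With siMyc it was 4.33, 4.74 and 5.5 in 231:TKO and 2.96, 2.8 and 3.29 in parental 231. The 4 siRNA groups ordered without overlap, except that the values of 231:TKO+siMyc and parental 231+siNT overlapped. HILPDA, the other inhibitor, was below PNPLA2 per kilobase in every library, with ratios between 0.0767 and 0.604. The highest of these came from untreated 231:TKO replicate 2.

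**Figure D2:**
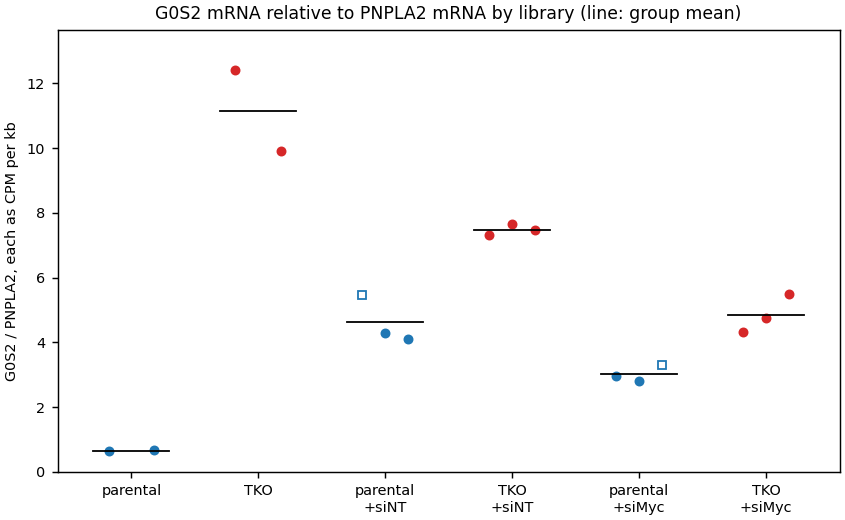
Ratio of G0S2 to PNPLA2 in each library, both as CPM per kb, on an axis from 0 (blue, parental 231; red, 231:TKO; black line, group mean; open squares, the parental pair). The ratio was below 1 in both untreated parental libraries and between 2.8 and 12.4 in the others.

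The first comparison set untreated 231:TKO against untreated parental 231. G0S2 was picked on this contrast, so the values of the 10 genes are given as a description. Log2 fold changes come from edgeR. G0S2 was 3.18 higher on the log2 scale in 231:TKO (SE 0.27, 95% interval 2.46 to 3.91), 3.53 in replicate 1 and 2.81 in replicate 2. PNPLA2, which encodes the lipase that G0S2 inhibits, went the other way, from 115 and 112 to 70.9 and 53.6 CPM, a log2 fold change of -0.94 (SE 0.14). DGAT2, one of the enzymes of the last synthesis step, went from 15.9 and 14.9 to 5.33 and 2.42 CPM (-2.06, SE 0.39). In the fit over 19965 genes 9.61% were past an adjusted p of 0.05, these 3 among them. For G0S2 that was settled by the choice of the gene, and nothing is read from the count. TXNIP itself had a log2 fold change of -3.29 (SE 0.65) and did not pass (adjusted p = 0.0587 by edgeR).

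The other 7 genes lay closer to 0. ABHD5 had a log2 fold change of -0.21 (SE 0.14), PLIN2 of -0.41 (SE 0.09), PLIN3 of -0.12 (SE 0.06), LIPE of -0.17 (SE 0.2), MGLL of -0.38 (SE 0.29), HILPDA of 0.35 (SE 0.35) and DGAT1 of -0.34 (SE 0.13). The 2 knockout libraries disagreed most for the inhibitor HILPDA, with 8.79 and 17.5 CPM, and for MGLL, with 85.6 and 47.1 CPM, against 9.59 and 10.0 CPM and 83.2 and 80.6 CPM in parental 231. Without 231:TKO replicate 1 the log2 fold change of MGLL became -0.88, and without replicate 2 that of HILPDA became -0.24. The median over the 10 genes was -0.28, against 0.0 over all genes tested.

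After siNT the same populations gave a different picture for G0S2 and a similar one for its target lipase. G0S2 was at 137 ± 9.4 CPM in 231:TKO+siNT and 138 ± 25.6 CPM in parental 231+siNT (SD, n = 3 each), which differed by -0.04 on the log2 scale with a 95% interval of -0.31 to 0.23 (adjusted p = 0.827, from the quasi-likelihood test of edgeR with Benjamini-Hochberg correction over all genes). The interval lies below that of untreated cells, but the difference between these comparisons was not tested, since the first one chose the gene. Parental siNT replicate 1, of the parental pair, was the highest library at 168 CPM. Without it G0S2 was 0.14 higher in 231:TKO (adjusted p = 0.0542 by edgeR). HILPDA did not pass the test either, with 9.94 ± 0.834 against 9.41 ± 1.57 CPM (SD, n = 3 each).

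The lipases and the synthesis enzymes moved more. PNPLA2 was at 77.9, 84.4 and 77.9 CPM in 231:TKO+siNT and at 134, 126 and 132 CPM in parental 231+siNT, so that no library overlapped. Its log2 fold change was -0.73 (SE 0.09, adjusted p = 5.48e-05 by edgeR). MGLL, which cleaves the last fatty acid off, was at 60.5, 62.9 and 62.6 CPM against 91.6, 108 and 119 CPM (-0.8, SE 0.11, adjusted p = 0.000138 by edgeR). LIPE was the only member that rose, from 5.56, 5.31 and 5.46 to 6.99, 8.06 and 7.68 CPM (0.45, SE 0.11, adjusted p = 0.00984 by edgeR). The co-activator ABHD5 did not pass the test, at 80.1 ± 4.73 against 78.3 ± 0.795 CPM. PLIN2 fell from 99.7 ± 3.37 to 72.3 ± 3.24 CPM (-0.49, SE 0.09, adjusted p = 0.00093 by edgeR), and PLIN3 did not pass the test at 258 ± 17.7 against 275 ± 20.7 CPM (SD, n = 3 each).

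DGAT2 had the largest change of the 10. It was at 7.01, 6.76 and 6.15 CPM in 231:TKO+siNT and at 19.8, 16.5 and 18 CPM in parental 231+siNT, a log2 fold change of -1.48 (SE 0.11, adjusted p = 2.37e-06 by edgeR). DGAT1 fell from 41.1 ± 4.06 to 33.6 ± 1.16 CPM (SD, n = 3 each; -0.32, SE 0.1, adjusted p = 0.0267 by edgeR). That call was lost without any 1 of the 231:TKO+siNT libraries or without parental siNT replicate 2, with adjusted p-values of 0.0681 to 0.125 by edgeR. In all, 1 of the 10 genes rose and 5 fell, where 16.1% of the 23310 genes tested rose, 20.7% fell and 36.8% did one or the other. The median log2 fold change of the 10 was -0.22, against -0.03 over all genes. The population, the annotation release and the library depth changed together here and in the siMyc comparison below, and cannot be told apart. The siNT libraries held 48203939 to 49254930 counts in parental 231 and 31848151 to 34372015 in 231:TKO.

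With siMyc in both populations the calls were those of PNPLA2 (-0.64, SE 0.1), MGLL (-0.79, SE 0.1), PLIN2 (-0.59, SE 0.09) and DGAT2 (-1.69, SE 0.1), which were lower in 231:TKO, and LIPE (0.68, SE 0.13) and ABHD5 (0.3, SE 0.09), which were higher. Their adjusted p-values from edgeR were between 3.8e-08 and 0.0166. ABHD5, which had not differed by the test after siNT, was at 99.2, 99.4 and 106 CPM in 231:TKO+siMyc and at 84.1, 86.1 and 78.3 CPM in parental 231+siMyc. Its call was lost without 231:TKO siMyc replicate 2 or 3, with adjusted p-values of 0.0553 and 0.0521 by edgeR. G0S2 was at 111 ± 3.68 against 110 ± 18.1 CPM (SD, n = 3 each), which differed by 0.03 on the log2 scale with an interval of -0.22 to 0.27. Without parental siMyc replicate 3, of the parental pair, it was 0.17 higher in 231:TKO (adjusted p = 0.0191 by edgeR). DGAT1, PLIN3 and HILPDA did not pass the test. The 2 higher and 4 lower genes compare with 18.8% and 21.7% of the 23561 genes tested, 40.6% together.

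**Figure D3:**
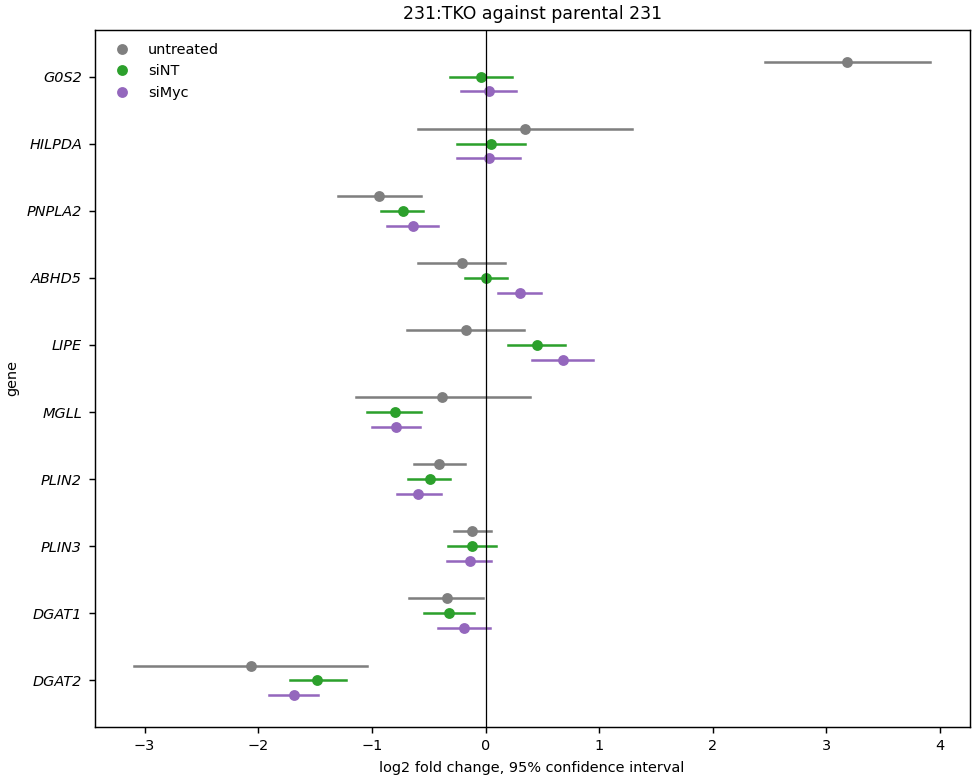
Log2 fold change of each gene between 231:TKO and parental 231, with its 95% confidence interval, in untreated (grey), siNT-treated (green) and siMyc-treated (purple) libraries; the siNT and siMyc comparisons share no libraries. G0S2 was at 3.18 in untreated cells and at -0.04 and 0.03 with siRNA, while DGAT2 was between -2.06 and -1.48 in all 3.

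The knockdown comparison asked which of these genes depend on MYC in cells without TXNIP. In 231:TKO siMyc lowered both inhibitors and raised the lipase they bind. G0S2 fell from 130, 148 and 133 to 107, 115 and 112 CPM, with no overlap, a log2 fold change of -0.3 (SE 0.06, adjusted p = 0.000305 by edgeR). HILPDA fell from 9.72, 10.9 and 9.24 to 7.36, 6.61 and 7.21 CPM (-0.49, SE 0.09, adjusted p = 0.000356 by edgeR). PNPLA2 rose from 77.9, 84.4 and 77.9 to 108, 106 and 89.1 CPM (0.34, SE 0.07, adjusted p = 0.000415 by edgeR). In a fit of all 12 siRNA libraries, which shares the wider spread of the parental ones, G0S2 kept a log2 fold change of -0.27 but not its call (adjusted p = 0.233 by edgeR).

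The co-activator, the last lipase and a coat protein rose as well. ABHD5 went from 83.5, 74.7 and 82.1 to 99.2, 99.4 and 106 CPM (0.34, SE 0.06, adjusted p = 7.02e-05 by edgeR), MGLL from 62.0 ± 1.28 to 78.8 ± 3.29 CPM (0.35, SE 0.05, adjusted p = 3.8e-05) and PLIN3 from 258 ± 17.7 to 321 ± 24.4 CPM (0.32, SE 0.06, adjusted p = 0.000255; SD, n = 3). DGAT1 rose from 33.6 ± 1.16 to 39.0 ± 3.75 CPM (0.22, SE 0.07, adjusted p = 0.0234 by edgeR), a call lost in the 12-library fit (adjusted p = 0.157) and without siNT replicate 1 or 3 or siMyc replicate 1 or 2 (0.0503 to 0.156). LIPE, DGAT2 and PLIN2 did not pass the test. PLIN2 had a log2 fold change of -0.14 (interval -0.25 to -0.02, adjusted p = 0.079 by edgeR). It passed in 3 of 13 alternative settings, among them the fit without siMyc replicate 3 (-0.17, adjusted p = 0.00795 by edgeR). The 5 higher and 2 lower genes compare with 13.3% and 13.9% of the 22450 genes tested, 27.2% together, and their median of 0.11 with a median of 0.01. No change in this comparison reached 0.5 on the log2 scale.

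In parental 231 the errors of the same knockdown were wider. Its fold changes lay near those in 231:TKO for some genes and less near for others, and the test of that difference follows below. G0S2 went from 168, 123 and 123 to 103, 96.2 and 130 CPM, which overlapped, with a log2 fold change of -0.35 (SE 0.17, interval -0.73 to 0.03, adjusted p = 0.381 by edgeR). HILPDA had -0.45 (SE 0.16), PNPLA2 0.26 (SE 0.1), PLIN3 0.35 (SE 0.1) and MGLL 0.34 (SE 0.12). ABHD5 had 0.06 (SE 0.09) where 231:TKO had 0.34, LIPE -0.22 (SE 0.12) where 231:TKO had 0.0041, and DGAT2 0.2 (SE 0.1) where 231:TKO had -0.02. DGAT1 had 0.1 (SE 0.12) and PLIN2 -0.03 (SE 0.09). None of the 10 passed edgeR's adjusted threshold, which 0.594% of the 23728 genes tested did, and 4 had an unadjusted p under 0.05, as had 3462 genes in all. DESeq2's Wald test called 1 of them, PLIN3 (adjusted p = 0.0402), among 1110 genes in all. The overlap of G0S2 involved the parental pair, which held the highest G0S2 value of each group.

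When the parental pair was given its own term in the model, a step chosen after the libraries were seen to deviate together, 26.8% of genes passed and so did 6 of the 10. G0S2 (-0.35, SE 0.04, adjusted p = 3.16e-09 by edgeR) and HILPDA (-0.45, SE 0.09, adjusted p = 3.23e-05) were lower. PNPLA2 (0.25, SE 0.04), PLIN3 (0.35, SE 0.04), MGLL (0.34, SE 0.04) and DGAT2 (0.2, SE 0.06) were higher, with adjusted p-values of 5.08e-09 to 0.00951 by edgeR. The fold changes stayed within 0.01 of those without the term, and the errors shrank. With the pair left out instead, 6 of the 10 passed as well, of 4673 genes in all, G0S2 at -0.34 (adjusted p = 0.000253 by edgeR).

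The difference between these responses was tested directly over the 12 siRNA libraries. No gene of 25812 passed edgeR's adjusted threshold (0.0%), 1039 had an unadjusted p under 0.05, and DESeq2 called 6 genes, none of them among the 10. For G0S2 the response in 231:TKO minus that in parental 231 was 0.09 on the log2 scale, with an interval of -0.29 to 0.46. For PNPLA2 it was 0.11 (-0.16 to 0.38), for PLIN3 -0.003 (-0.26 to 0.25), for MGLL 0.04 (-0.25 to 0.33) and for HILPDA -0.01 (-0.41 to 0.39). For LIPE it was 0.25 (-0.09 to 0.6) and for DGAT2 -0.19 (-0.49 to 0.11), so that neither gene was shown to respond differently. The co-activator ABHD5 stood farthest from 0, at 0.31 (0.08 to 0.55). It was the 1 member with an unadjusted p under 0.05. With the term for the parental pair 0.57% of genes passed, ABHD5 among them (0.31, SE 0.08, adjusted p = 0.0188 by edgeR), whereas with the pair left out it did not (0.21, adjusted p = 0.398).

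**Figure D4:**
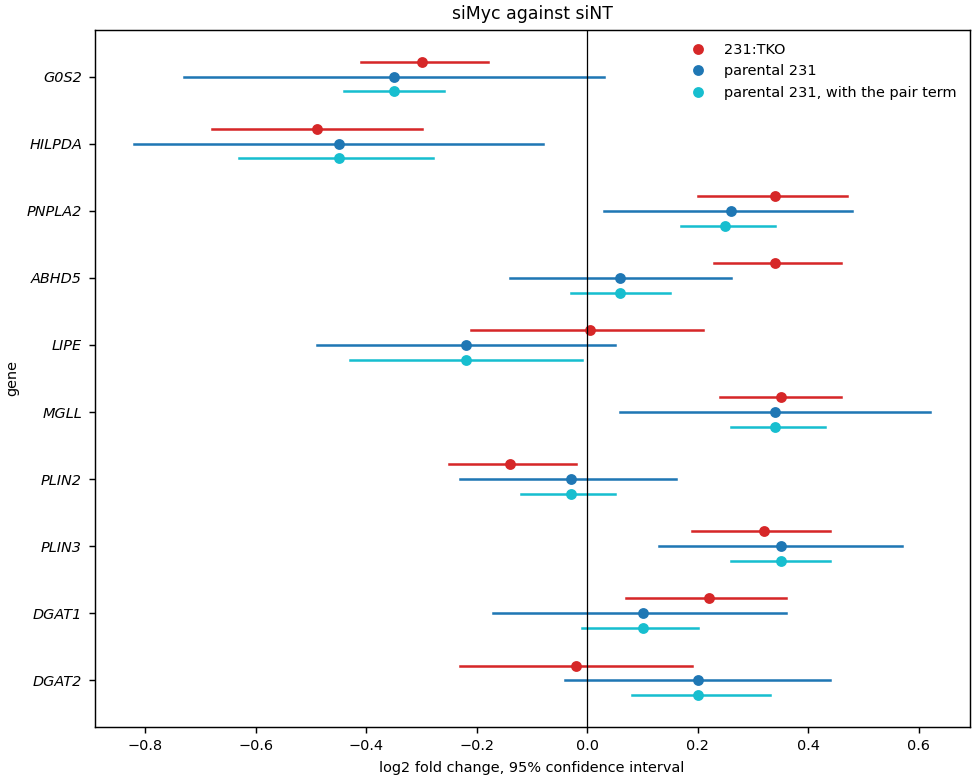
Log2 fold change of each gene between siMyc and siNT with its 95% confidence interval, in 231:TKO (red), in parental 231 (dark blue) and in parental 231 with a model term for the parental pair (light blue). G0S2 was at -0.3 in 231:TKO and -0.35 in parental 231, and ABHD5 at 0.34 and 0.06.

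Around these genes, 117 others from lists of lipid and hypoxia genes were looked up. Of the 109 tested in the siNT comparison, 23 were higher and 41 lower in 231:TKO, with a median log2 fold change of -0.18. In mitochondrial fatty acid oxidation, the pathway that burns the released fatty acids, 14 of the 20 genes listed were lower and 0 higher (median -0.43). Over all genes tested 20.7% were lower and 16.1% higher, but these shares include genes with few counts. No comparison with genes of like level was made. In untreated cells 2 of the 20 were lower and 1 higher (median -0.12). Named from the oxidation list by size of change after siNT were CPT1C, from 8.52 ± 0.107 to 2.14 ± 0.338 CPM, and ETFB, an electron carrier subunit, from 37.9 ± 6.81 to 17.6 ± 0.382 CPM (SD, n = 3 each). Whether the product of each listed gene acts in mitochondrial oxidation was not checked, and what these levels mean for fatty acid oxidation was not tested. Of 15 hypoxia targets 2 were higher and 8 lower, among them the carbonic anhydrase CA9, at 4.09 ± 0.831 CPM in parental 231+siNT and 0.0888 ± 0.0293 CPM in 231:TKO+siNT, and the lipase inhibitor ANGPTL4, at 10.9 ± 1.5 and 1.43 ± 0.19 CPM. HILPDA, a hypoxia target too, did not pass in that comparison.

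Other lipid droplet proteins gave 3 higher and 1 lower of 13 tested, led by METTL7A (log2 fold change 1.47, SE 0.11) and the droplet assembly factor LDAF1 (1.29, SE 0.1). Other lipases gave 6 higher and 4 lower of 15, led by lipoprotein lipase LPL (6.05, SE 0.22) and PNPLA6 (-1.22, SE 0.09). LPL is also an adipocyte marker, and the only one of the 6 on that list with a mean of at least 1 CPM. Other genes of triglyceride and sterol ester synthesis gave 4 higher and 3 lower of 14, led by GPAT3 (0.73, SE 0.08) and LPIN1 (0.62, SE 0.16). Fatty acid uptake and activation gave 5 higher and 4 lower of 14, led by the fatty acid binding protein FABP3 (3.16, SE 0.21) and SLC27A5 (-1.42, SE 0.19). Regulators of lipid genes gave 3 higher and 7 lower of 18, and the leading ones were the co-activators PPARGC1A (1.98, SE 0.15) and PPARGC1B (1.49, SE 0.21). The adjusted p-values of the genes named from these lists were between 8.5e-09 and 0.0107 by edgeR. Between the siMyc-treated populations 24 of 111 tested genes were higher and 41 lower, and between the untreated ones 7 of 101 were higher and 15 lower. Over all genes tested, 18.8% were higher and 21.7% lower with siMyc, and 9.61% passed in either direction in untreated cells. In untreated cells the lipid synthesis regulator SREBF1 went from 143 ± 3.05 CPM in parental 231 to 45.5 ± 4.23 CPM in 231:TKO (SD, n = 2 each), and GPAT3, which makes a precursor of triglyceride, from 40.0 ± 0.408 to 101 ± 20.4 CPM. Their log2 fold changes were -1.72 (SE 0.08) and 1.26 (SE 0.16), with adjusted p-values of 0.00297 and 0.0172 by edgeR.

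In 231:TKO siMyc moved 31 of 106 tested genes of these lists up and 16 down. Over all 22450 genes tested, 13.3% were higher and 13.9% lower. Other lipases gave 8 higher and 1 lower of 13 (median 0.25), led by PNPLA7 (0.82, SE 0.17), from 1.3 ± 0.154 to 2.31 ± 0.213 CPM, and by PNPLA3 (0.68, SE 0.09), from 8.3 ± 0.857 to 13.2 ± 0.79 CPM. Regulators gave 9 higher and 2 lower of 18, with the fatty acid sensor PPARA at 0.65 (SE 0.06) and PPARGC1B at -0.95 (SE 0.11). Hypoxia targets gave 1 higher and 5 lower of 15, with lactate dehydrogenase LDHA at -0.66 (SE 0.05) and VEGFA at -0.49 (SE 0.05). Fatty acid binding proteins went both ways, FABP5 by -0.89 (SE 0.07) and FABP3 by 0.85 (SE 0.11). Droplet proteins gave 1 higher and 3 lower of 12, synthesis genes 4 higher and 3 lower of 14, uptake genes 4 higher and 2 lower of 14, and oxidation genes 4 higher and 0 lower of 20. Adjusted p-values of the named genes were 3.57e-09 to 0.000742 by edgeR. In parental 231 1 of the 110 tested genes passed, the acyltransferase AGPAT5 at -0.55 (adjusted p = 0.0491 by edgeR), and in the difference between the responses 0 of 112 did. Over all genes tested these shares were 0.594% and 0.0%.

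G0S2 spanned 3.55 on the log2 scale over the 16 libraries, more than DGAT2 with 2.91 or any other of the 10 genes. Among 3132 genes that averaged at least 1 CPM and spanned at least 2 on the log2 scale, the 5 whose log2 levels followed it most closely were RNF128, MT-ATP8, HS3ST1, MYH16 and CCNA1, with Pearson's r of 0.93, 0.93, 0.9, 0.9 and 0.89 over 16 libraries. All 5 were lowest in untreated parental 231. The cyclin gene CCNA1 was at a mean of 0.981 CPM there and at 6.3 to 15.3 CPM in the other conditions, and RNF128 at 0.147 and 5.85 to 8.83 CPM. MT-ATP8, a mitochondrial gene that overlaps MT-ATP6, so that its reads are uncertain, was at 87.6 and 359 to 510 CPM. Over the 12 siRNA libraries alone r was between -0.54 and 0.76, highest for CCNA1, so that the likeness rested on the untreated parental libraries. Among the other 9 members r with G0S2 lay between -0.55 for ABHD5 and 0.42 for PLIN3.

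**Figure D5:**
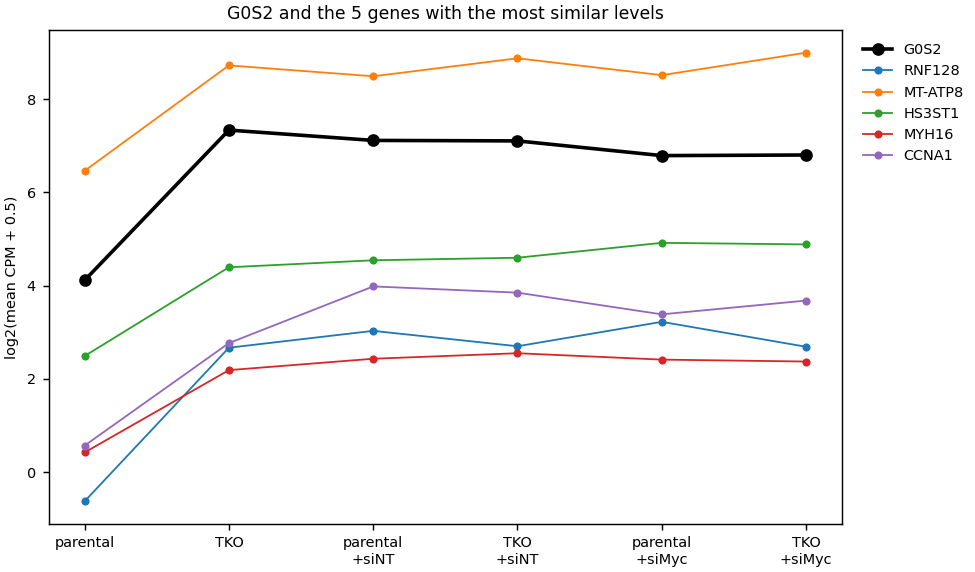
Log2 of the mean CPM plus 0.5 in the 6 conditions for G0S2 (black) and the 5 genes with the highest correlation to it over 16 libraries; lines join the values of 1 gene. All 6 genes were lowest in untreated parental 231.

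Genes on the same chromosome within 10 Mb gave a local reference, described here for G0S2, DGAT2, DGAT1, HILPDA and PNPLA2. Around G0S2 the median log2 fold change over 105 genes was -0.01 in untreated cells, the contrast on which G0S2 was picked. It was 0.18 after siNT and 0.21 with siMyc, where G0S2 itself was at -0.04 and 0.03. Around DGAT2 165 genes had a median of 0.16 in untreated cells. After siNT the genes around DGAT2 had a median of -0.19, and 3.59% of 167 lay below it. DGAT1 was close to its surroundings, at -0.32 after siNT where 80 neighbours had a median of -0.28. The genes around HILPDA had medians of 0.38 in untreated cells and 0.36 after siNT, where HILPDA itself was at 0.35 and 0.05. Around PNPLA2 the medians were -0.05 and -0.17. The part of copy number in these values was not tested.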

How the data were processed

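Poly(A) RNA of MDA-MB-231 cells was sequenced after stranded library preparation. The authors used STAR for alignment to GRCh38, then featureCounts 1.6.3 on the reverse strand for reads per Ensembl gene. The deposited values are raw counts per gene, 1 table for each of the 16 libraries, with totals of 18953668 to 59799444. Here gene symbols were matched to identifiers (96.7% had one). CPM were scaled by TMM factors over the 16 libraries. Each comparison was fitted across all genes with more than 5 counts in its libraries by edgeR 4.0.16 (R 4.3.3), with a robust quasi-likelihood test, Benjamini-Hochberg adjustment over all genes tested and a threshold of 0.05. Shares over all genes tested therefore include genes with few counts. The difference between the siMyc responses used the 12 siRNA libraries. DESeq2 1.42.0, sva 3.50.0 with 1 surrogate variable, other filters, thresholds, scalings and a replicate block were alternatives, and the scripts were tested on simulated data. The members and gene lists were chosen with earlier results of these data known. All 10 members were named throughout, the wider lists by up to 2 genes per comparison with the largest change among those called at a mean of at least 1 CPM, and the genes most like G0S2 by the 5 highest correlations. Replicate numbers come from the labels, which name no cultures, so that p-values measure the spread between these libraries. No 2 libraries of a group agreed within counting noise. Coordinates are those of the count tables, and the promoter windows come from RefSeq on GRCh38.p14.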

Additional observations from a re-analysis of the deposited data

Results flagged for a closer look

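Outside the 10 members, 5 genes, all from the wider lists, had every 231:TKO library on one side of the parental libraries in untreated cells and on the other side with siMyc. LPL, FOXO1 and ANGPTL4 did so with siNT as well, whereas HSD17B11 and LPIN2 overlapped between populations there. How many of all genes did so was not counted, so nothing is read from the number. In none of the 5 was the difference between the comparisons tested. The clearest was the lipoprotein lipase gene LPL, at a mean of 5.51 CPM in untreated parental 231 and 0.0513 in untreated 231:TKO. The latter rests on 3 counts in 1 library and 0 in the other, against 224 counts in parental 231, a ratio of 106 with an exact 95% counting interval of 35.8 to 518. With siNT the order was the opposite, 0.214 CPM in parental 231 and 14.7 in 231:TKO, and with siMyc it was 0.401 and 17.2 CPM. TXNIP mRNA was higher in parental 231 than in 231:TKO in all of these libraries.

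FOXO1, a transcription factor that acts on lipase genes, was at 7.01 CPM in untreated parental 231 and 2.29 in untreated 231:TKO, but at 6.96 and 12.3 with siNT and 7.76 and 13.7 with siMyc. ANGPTL4 was at 1.74 and 2.85 CPM in untreated cells, at 10.9 and 1.43 with siNT and at 12.5 and 1.12 with siMyc, in the same order of populations. HSD17B11, a droplet protein, was at 78.2 and 128 CPM in untreated cells and 141 and 124 with siMyc. Its siNT libraries had 167, 134 and 127 CPM in parental 231 and 131, 123 and 127 in 231:TKO. LPIN2 was at 119 and 111 CPM in untreated cells and 105 and 131 with siMyc. Its siNT libraries had 68.7, 98.9 and 106 CPM in parental 231 and 101, 106 and 103 in 231:TKO. None of the 10 members changed sides in this way. The untreated and siRNA libraries also differ in transfection, sequencing layout and, in parental 231, annotation release, which cannot be told apart here. Whether they came from the same clones and passages is not given in the sources used here, which limits what these reversals can be read as.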

How the results depend on the processing

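Counts of called members were within 1.5 times the reported ones under most settings. Without 1 library at a time, the untreated count of 3 ranged from 0 to 9, since the fit without a parental replicate called 0 genes in all and that without 231:TKO replicate 1 called 9 members and 7002 genes in all, against 1919 with every library, with the lone library assumed to vary like the other group. An adjusted p of at most 0.01 left 0 there. A minimum log2 fold change of 0.5 left 3 of 6 in the siNT comparison and 0 of 7 for siMyc in 231:TKO, as its construction makes fewer calls. For siMyc in parental 231 the main fit called 0 members and 141 genes in all. DESeq2's Wald test called 1 member of 1110 genes in all, and 1 fit of the 12 siRNA libraries 3 of 1666. With 1 surrogate variable it was 6 of 6415, with a term for the parental pair 6 of 6363, and with that pair left out 6 of 4673. The number of calls over all genes thus changed as well. For the difference between the responses the term for the pair gave 1 of 147, against 0 of 0. Values near 0 changed sign. In the siNT comparison, leaving out 1 library at a time put G0S2 between -0.11 and 0.14, ABHD5 between -0.02 and 0.05 and HILPDA between -0.03 and 0.21, and ABHD5 was at -0.0042 with no filter and -0.00089 in the 12-library fit. In the siMyc comparison of populations G0S2 was between -0.07 and 0.17 and HILPDA between -0.04 and 0.15. For siMyc in 231:TKO, LIPE was between -0.05 and 0.09 and DGAT2 between -0.08 and 0.04, and DGAT2 was at 0.01 in the 12-library fit. For the difference between the responses, G0S2 was between -0.13 and 0.18, PLIN3 between -0.11 and 0.06, MGLL between -0.11 and 0.08 and HILPDA between -0.2 and 0.07, and MGLL was at -0.0028 with DESeq2 size factors and with DESeq2. Plain library totals moved group means by factors of 0.953 to 1.07. Beyond the pair, the causes were not tested.

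Replicate numbers did not pair the libraries. Deviations of same-numbered siNT and siMyc libraries correlated by -0.89, 0.75 and -0.81 in parental 231 and by -0.24, 0.25 and 0.41 in 231:TKO. With a replicate block 3 members of 904 genes called in all passed in untreated cells, 6 of 8481 in the siNT comparison, 5 of 8182 in the siMyc comparison of populations, 8 of 6829 for siMyc in 231:TKO, and 0 of 0 both for siMyc in parental 231 and for the difference. The members that moved were ABHD5 (0.3, adjusted p = 0.0527 by edgeR), lost between populations with siMyc, and PLIN2 (-0.14, adjusted p = 0.0449 by edgeR), gained for siMyc in 231:TKO.

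With 2 or 3 libraries a group, small differences stay below what the tests can separate, and the widest intervals are those of untreated 231:TKO and of the parental siRNA libraries. Levels rest on 69 counts or more for every member in every library, and in groups whose libraries lie close together, such as LIPE in parental 231+siNT, counting error is no smaller than the spread. Scaling hides any change that all genes share.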
